A study of Mus musculus with 8 samples.

Results

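The Wnt ligands, Frizzled and LRP receptors and signalling genes of the embryonic mouse cortex were read in 38 genes, chosen by symbol by their place in the pathway. The 38 comprised 7 ligands, 1 gene of ligand acylation, 10 Frizzled receptors, 2 LRP co-receptors, 3 secreted modulators, 3 Dishevelled adaptors, 5 genes of beta-catenin and its destruction complex, 4 TCF/LEF factors and 3 feedback inhibitors. All 38 were found among the 23284 gene symbols of the files, and all 38 were among the 14696 genes with enough reads to be tested. RNA came from dorsal cortex at embryonic day E15.5 in mice of the C57BL/6 strain, with 4 WT libraries and 4 libraries labelled ErbB4-/-. The mice labelled ErbB4-/- lack the neuregulin receptor ErbB4, and a transgene that expresses ErbB4 in the heart from the α-MHC promoter keeps them alive. WT and ErbB4-/- mice were bred as separate homozygous colonies, so colony and genotype cannot be told apart. Meninges and ganglionic eminences were dissected away, and no treatment was given in either group. Nothing in the labels says whether the embryos of a group shared a litter, so p-values measure the spread between these libraries.

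Wnt proteins are secreted lipid-modified ligands that bind a Frizzled receptor together with LRP5 or LRP6. Without ligand, a complex built on Axin and APC lets GSK3-beta mark beta-catenin for destruction. Ligand binding acts through Dishevelled to stop this, and beta-catenin then enters the nucleus and activates genes with TCF/LEF factors, among them the feedback inhibitors Axin2, Nkd1, Znrf3 and Rnf43. In the developing cortex, Wnt ligands made at the medial edge, in the cortical hem, pattern the cortex and hippocampus, while Wnt7a and Wnt7b are expressed more widely and Wnt signalling affects the choice of progenitors to divide or to become neurons.

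Library totals were 28205703 to 38346416 reads in WT and 31574536 to 48871480 in the libraries labelled ErbB4-/-. WT replicate 1 stood apart from the rest, at -38.9 on the first principal component against -6.07 or more for the other 7 libraries. Erbb4 itself did not check the labels. It was at 8.99, 19.9, 25.3 and 19.2 CPM (reads scaled to a common library size) in WT and at 20.9, 24.6, 20.7 and 23.5 CPM in the libraries labelled ErbB4-/- (log2 fold change 0.28, SE 0.23, edgeR adjusted p = 0.812, with 0.06 without WT replicate 1 and 0.48 without WT replicate 3), so each direction given here rests on the labels. How much of the Erbb4 transcript the mutant allele removes was not examined here. The X-inactivation RNA Xist was at 983 to 1686 CPM in WT replicates 1 to 3 and at no more than 3.82 CPM in the other 5 libraries, so sex and genotype were largely confounded. In a fit with the Xist level as a covariate, the genotype difference therefore rests almost only on WT replicate 4 among the WT libraries. Values from that fit depend on 1 library and do not correct for sex. Cortical markers were present in each library, with the neuronal list summing to 7305 to 7835 CPM, and ganglionic eminence genes were also present at summed levels of 458 to 645 CPM. Choroid plexus RNA was high in 1 library, labelled ErbB4-/- replicate 3, where its 7 genes summed to 625 CPM against 2.89 to 14.0 CPM elsewhere. Red blood cell genes summed to 31.7 to 56.1 CPM in WT and to 20.7 to 34.8 CPM in the libraries labelled ErbB4-/-. Of the 4 tested, 3 had lower fitted values and 1, Alas2 at a log2 fold change of 0.21, a higher one. The embryonic globin genes were lowest, with log2 fold changes of -1.72 for Hbb-y and -1.23 for Hba-x. Their edgeR adjusted p values were 0.81 and 0.74, and both overlapped between groups.

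The promoters of 4 members described below are shown, although no member passed the adjusted test between genotypes. Sfrp2 and Nkd1 are the members whose genotypes did not overlap, Tcf7l1 had the lowest fitted difference, and Wnt8b is one of the medial ligands that varied most between libraries. Each window runs from 250 bases before to 50 bases after the start site, 5′ to 3′ on the gene's strand, from RefSeq on build GRCm38.p6. The windows lie at chr3:83766071-83766370 (Sfrp2, plus strand), chr8:88527383-88527682 (Nkd1, plus strand), chr6:72788996-72789295 (Tcf7l1, minus strand) and chr19:44493222-44493521 (Wnt8b, plus strand). Capitals mark CTTTG on either strand, the core letters of the site that TCF/LEF factors bind.
Sfrp2: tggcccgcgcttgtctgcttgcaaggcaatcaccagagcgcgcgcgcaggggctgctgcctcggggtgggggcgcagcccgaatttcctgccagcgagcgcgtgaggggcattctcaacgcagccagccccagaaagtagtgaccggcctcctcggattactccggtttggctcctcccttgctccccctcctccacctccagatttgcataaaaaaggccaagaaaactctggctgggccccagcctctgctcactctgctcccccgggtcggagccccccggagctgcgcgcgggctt
Nkd1: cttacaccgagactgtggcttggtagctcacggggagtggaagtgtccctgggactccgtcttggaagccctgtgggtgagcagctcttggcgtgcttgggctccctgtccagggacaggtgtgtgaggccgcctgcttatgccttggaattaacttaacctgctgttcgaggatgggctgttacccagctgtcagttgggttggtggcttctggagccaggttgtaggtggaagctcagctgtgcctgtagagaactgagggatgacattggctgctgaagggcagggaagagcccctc
Tcf7l1: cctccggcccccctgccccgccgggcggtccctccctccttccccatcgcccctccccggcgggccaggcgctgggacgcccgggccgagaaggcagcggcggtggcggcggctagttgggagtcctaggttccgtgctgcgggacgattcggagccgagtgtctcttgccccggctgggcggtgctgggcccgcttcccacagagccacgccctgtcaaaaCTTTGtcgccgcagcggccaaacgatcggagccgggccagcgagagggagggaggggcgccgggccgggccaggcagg
Wnt8b: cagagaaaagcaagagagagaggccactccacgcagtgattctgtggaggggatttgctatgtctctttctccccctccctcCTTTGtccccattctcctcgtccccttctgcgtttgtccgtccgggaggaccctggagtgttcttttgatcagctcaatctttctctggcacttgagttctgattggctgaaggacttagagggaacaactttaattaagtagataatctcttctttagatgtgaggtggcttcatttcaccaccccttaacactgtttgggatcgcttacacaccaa
CTTTG occurred once in the Tcf7l1 window, from base 223, and once in the Wnt8b window, from base 83, and neither it nor its reverse complement occurred in the Sfrp2 or Nkd1 window. Promoter windows were matched for 24 of the 38 members, as 31 windows. Of these, 13 windows of 9 genes (41.9%) held CTTTG on either strand, against 53.9% of all 32851 windows of the same length. The longer form CTTTGA, which contains CTTTG, was found in 3 windows (9.68%), those of Fzd1, Gsk3b and Lef1, against 16.0% of all windows. The members' windows had a median GC content of 70% against 52.7% for all windows.

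The cortex expressed a steeply ranked set of pathway genes, led by Ctnnb1, Wnt7b, Fzd3 and Sfrp1. Levels were compared between genes as CPM per kilobase of the longest annotated transcript. The order of genes depends on that length, and neither overlap of ranges nor counts of libraries measures an error in it. Among the ligands, Wnt7b stood at 77.0 ± 7.42 CPM per kilobase (SD, n = 8) and made up 74.1% ± 2.59 (SD, n = 8) of the 7 ligands' summed level. Wnt7a, its close relative, followed at 18.2 ± 1.13 CPM per kilobase (SD, n = 8), and each library had Wnt7b above Wnt7a with no overlap of ranges. Wnt5a, best known for beta-catenin-independent signalling, came next at 3.91 CPM per kilobase. Lower still were Wnt8b at 1.66, Wnt2b at 1.35 and Wnt3a at 0.874 CPM per kilobase, ligands of the medial cortex, and Wnt4 was last at 0.66. The ranges of Wnt8b, Wnt2b, Wnt3a and Wnt4 overlapped from each to the next, although Wnt8b was above Wnt2b, and Wnt2b above Wnt3a, in 8 of 8 libraries. Porcn, which attaches the lipid that Wnt proteins need for secretion, stood at 14.3 ± 1.25 CPM per kilobase (SD, n = 8).

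Fzd3, a receptor known for axon guidance and planar polarity, held 49.4% ± 4.09 (SD, n = 8) of the summed Frizzled level, at 69.7 CPM per kilobase. Fzd2 at 20.9 and Fzd1 at 20 CPM per kilobase could not be ordered, since Fzd2 was the higher in 5 of 8 libraries. Fzd8 at 11.9, Fzd9 at 8.71, Fzd7 at 5.11, Fzd6 at 2.43, Fzd4 at 1.13, Fzd10 at 0.629 and Fzd5 at 0.336 CPM per kilobase followed. In that tail the ranges overlapped for Fzd8 with Fzd9, Fzd4 with Fzd10, and Fzd10 with Fzd5. Of the co-receptors, Lrp6 exceeded Lrp5 in 8 of 8 libraries, at 11.9 against 7.79 CPM per kilobase.

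Inside the cell, Ctnnb1, which encodes beta-catenin, was the most abundant of the 38 at 446 ± 18.6 CPM per kilobase (SD, n = 8), 8.91 times the level of Gsk3b. Beta-catenin also holds cells together at cadherin junctions, and the RNA level does not separate that role from signalling. The kinase gene Gsk3b at 50.1 and the scaffold gene Apc at 44.7 CPM per kilobase overlapped in range, although Gsk3b was the higher in 8 of 8 libraries. Without the division by length Apc was the higher, at a median of 578 CPM against 424 CPM for Gsk3b. Axin1 stood at 22.5 and Axin2 at 9.88 CPM per kilobase. The adaptor genes ranked Dvl3 at 40.0, Dvl1 at 25.2 and Dvl2 at 10.9 CPM per kilobase, with no overlap of ranges. Dvl3 and Dvl1 had median levels of 120 and 121 CPM, so their order came from the transcript lengths of 2936 and 4774 nucleotides. Among the TCF/LEF factors, Tcf7l1, mostly a repressor of Wnt targets, led at 5.79 CPM per kilobase with 43.3% of the summed level. Lef1 at 2.85, Tcf7 at 2.46 and Tcf7l2 at 2.2 CPM per kilobase overlapped from each to the next.

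Of the secreted modulators, Sfrp1 at 58.4 CPM per kilobase was 3.85 times as abundant as Sfrp2 at 15.2, and Dkk3, a divergent member of the Dickkopf family, stood at 9.13. The feedback inhibitors ranged from Nkd1 at 7.59 through Znrf3 at 2.28 to Rnf43 at 0.368 CPM per kilobase. Znrf3 and Rnf43 encode membrane ubiquitin ligases that remove Frizzled receptors from the cell surface, and Nkd1 encodes a protein that binds Dishevelled. The leading gene's share of its role was also compared between groups. Wnt7b held 74.6% ± 2.64 of the ligand level in WT and 73.7% ± 2.87 in the libraries labelled ErbB4-/- (SD, n = 4 each, exact two-sided permutation p = 0.657). Fzd3 held 47.6% ± 5.11 and 51.2% ± 2.04 of the Frizzled level (SD, n = 4 each, exact two-sided permutation p = 0.229), so neither share differed beyond the spread between libraries.

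**Figure D1:**
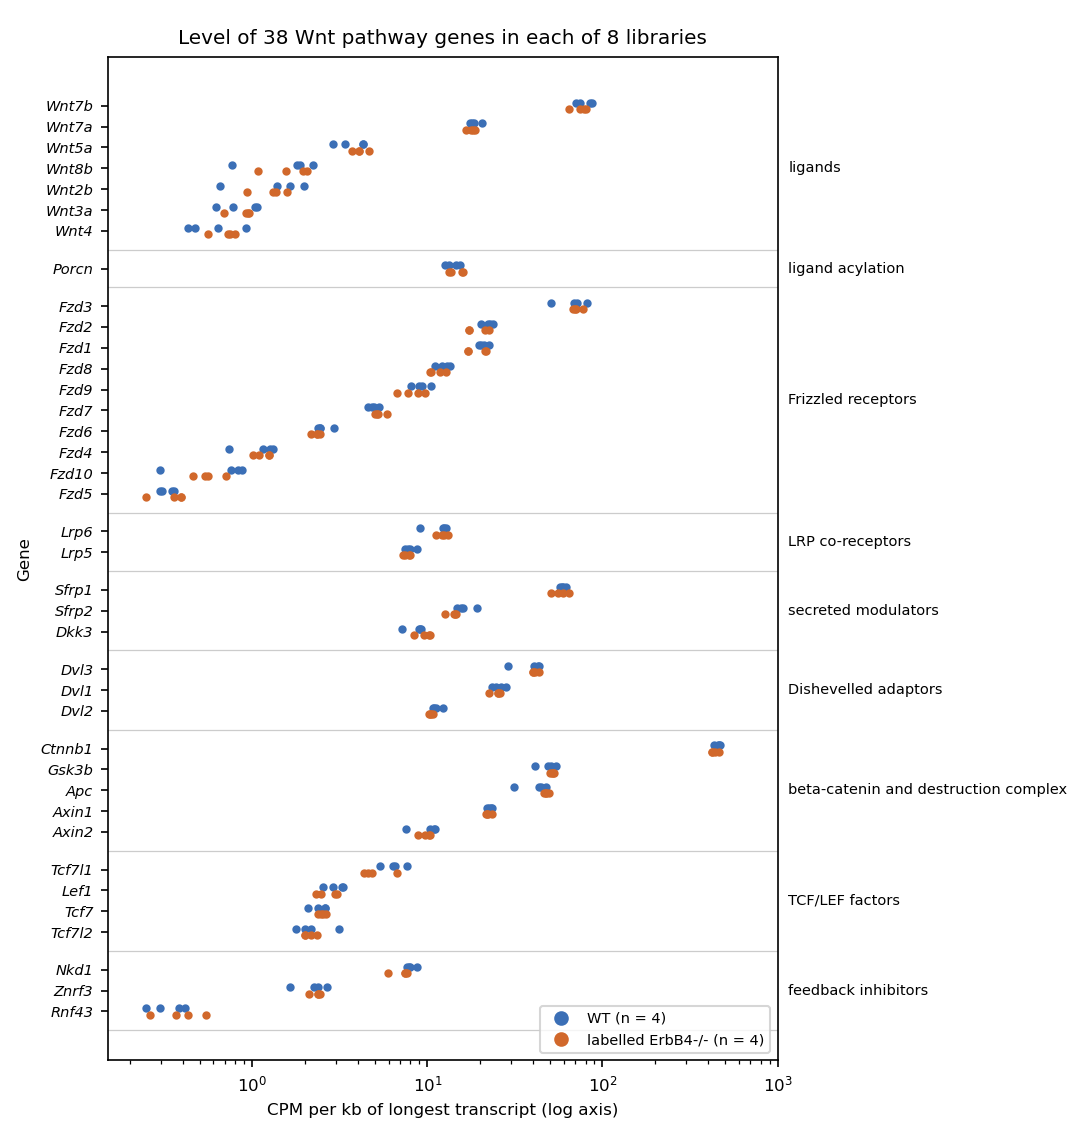
Level of each of the 38 members in each of 8 libraries, in CPM per kilobase of the longest transcript on a log axis, with genes grouped by role. WT libraries (n = 4) are blue and libraries labelled ErbB4-/- (n = 4) are orange. Ctnnb1 at a mean of 446 lies above all other members, and Wnt7b at 77.0 and Fzd3 at 69.7 lead the ligands and receptors.

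The comparison of the libraries labelled ErbB4-/- with WT asked whether loss of ErbB4 changes Wnt pathway RNA in the embryonic cortex. None of the 38 members passed the edgeR quasi-likelihood test with Benjamini-Hochberg adjustment over all 14696 genes, where 4 genes (0.0272%) passed, and the lowest adjusted p among the members was 0.81. DESeq2 also called 0 of 38 members, with 25 genes (0.161%) called in all, and limma-voom called 0 of 38, with 4 genes (0.0272%) called in all. At an unadjusted edgeR p under 0.05 there were 2 members (5.26%), against 5.53% of all genes tested, and DESeq2 and limma-voom each gave 2. Both were lower in the libraries labelled ErbB4-/-, a direction in which 2.52% of all genes had such a p. In total 15 members had a higher and 23 a lower fitted value than WT, with a median log2 fold change of -0.04 against -0.002 for all genes tested. The members' log2 fold changes ran from -0.34 for Tcf7l1 to 0.26 for Rnf43. For 32 of the 38 the 95% confidence interval lay within a 1.5-fold change either way, as it did for 11989 of all genes tested. The other 6 were Wnt2b, Wnt4, Wnt8b, Fzd10, Rnf43 and Tcf7l1, for which a change of that size was not excluded. Most of these fold changes were small enough to depend on the libraries used. Leaving out some single library moved the log2 fold change by over 1.5 times, or changed its sign, in 36 of the 38 members. The Xist covariate did so in 32, while DESeq2 did so in 2. The share of all genes tested that moved in this way was not counted, and a value near 0 meets this rule easily. These counts are therefore not shown to be particular to the members. In bulk tissue, fewer cells of a type and less RNA per cell cannot be told apart.

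**Figure D2:**
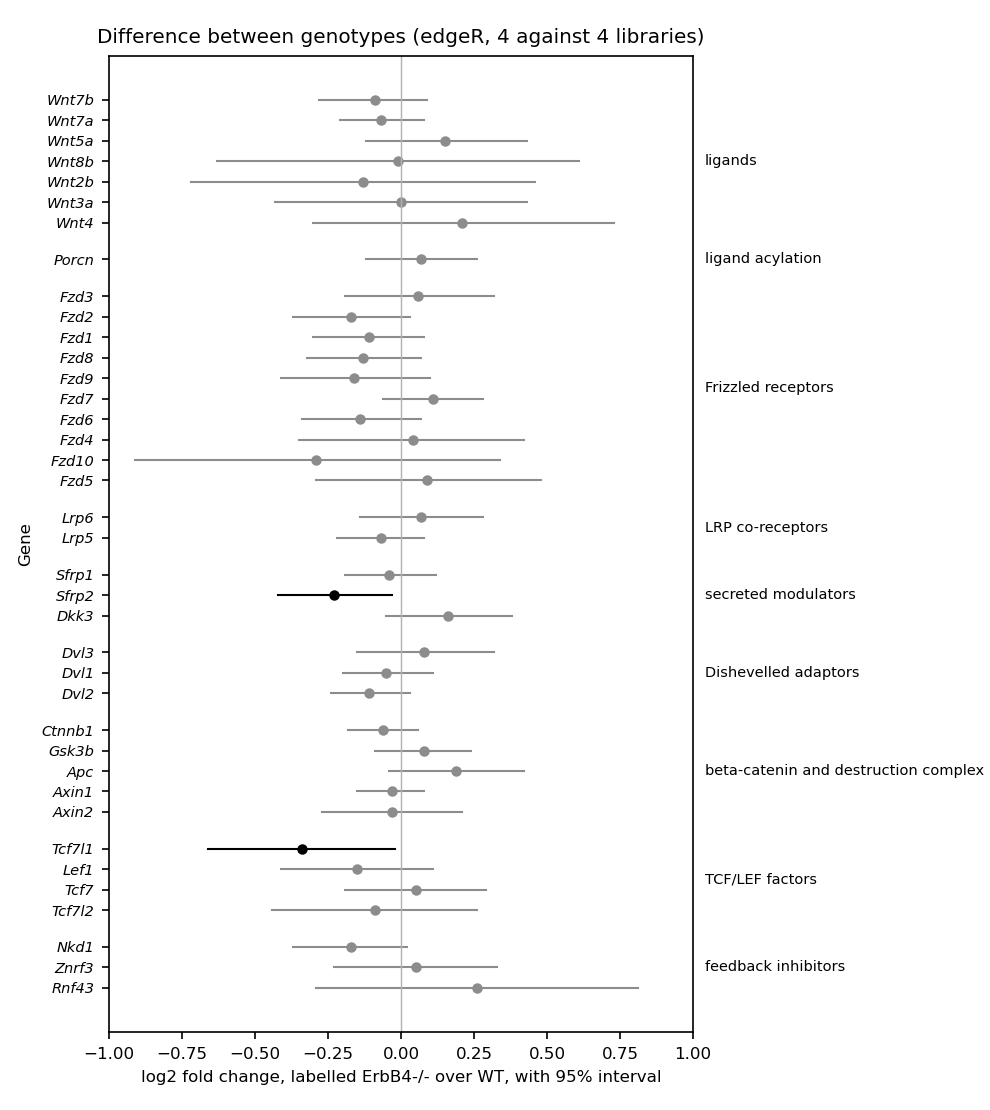
Log2 fold change of the libraries labelled ErbB4-/- over WT for the 38 members, grouped by role, with the 95% confidence interval from edgeR as a line (4 against 4 libraries). The 2 members with an unadjusted p under 0.05, Sfrp2 and Tcf7l1, are black and the others grey, and no member passed the adjusted test.

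Sfrp2 encodes a secreted Frizzled-related protein that binds Wnt ligands outside the cell, and it lies at chr3:83570243-83578238 (plus strand, mm9). It was at 38.5, 29.7, 31.0 and 31.9 CPM in WT and at 25.4, 29.2, 28.7 and 28.6 CPM in the libraries labelled ErbB4-/-. WT replicate 1 was the highest of the 8, ErbB4-/- replicate 1 the lowest, and the groups did not overlap. The log2 fold change was -0.23 (SE 0.089, 95% confidence interval -0.42 to -0.03), with an unadjusted edgeR p of 0.0257 and an adjusted p of 0.81. By the exact two-sided permutation test p was 0.0286, the smallest that 4 against 4 libraries allow. Without WT replicate 1 the log2 fold change was -0.14. The unadjusted edgeR p was under 0.05 in 7 of the 8 fits that left out 1 library, and was 0.0845 without ErbB4-/- replicate 1, at a log2 fold change of -0.19. With the Xist level as a covariate the log2 fold change was -0.21, a value that rests mostly on WT replicate 4 among the WT libraries. Exons of Sfrp2 share 347 bases with the antisense gene Gm16790, and the libraries did not mark strand. Sfrp1, the more abundant relative, had a log2 fold change of -0.04, with overlapping groups at 259, 249, 269.5 and 257 CPM in WT and 223, 243, 260.2 and 283 CPM in the libraries labelled ErbB4-/-.

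Tcf7l1 lies at chr6:72576372-72739248 (minus strand, mm9). It was at 19.8, 16.4, 19.3 and 23.2 CPM in WT and at 13.9, 13.2, 14.7 and 20.5 CPM in the libraries labelled ErbB4-/-. In this gene 3 of the mutant-labelled libraries were below each WT library, and ErbB4-/- replicate 4 lay among the WT values. The log2 fold change was -0.34 (SE 0.14, 95% confidence interval -0.66 to -0.02), with an unadjusted edgeR p of 0.0375, an adjusted p of 0.81 and an exact two-sided permutation p of 0.114. Leaving out single libraries gave log2 fold changes from -0.5 to -0.25. The unadjusted edgeR p was under 0.05 in 2 of these 8 fits, and ran from 0.00144 without ErbB4-/- replicate 4 (adjusted p = 0.26) to 0.124 without WT replicate 4. With the Xist level as a covariate the log2 fold change was -0.57, a value that rests mostly on WT replicate 4, the highest library at 23.2 CPM. The related factors had log2 fold changes of -0.15 for Lef1 (8.5 to 12.1 CPM), -0.09 for Tcf7l2 and 0.05 for Tcf7 (5.28 to 6.68 CPM), with overlapping groups. Tcf7l2, the least abundant factor per kilobase, was at 7.6, 13.5, 9.28 and 8.57 CPM in WT and at 8.63, 10.1, 8.63 and 9.27 CPM in the libraries labelled ErbB4-/-. Exons of Tcf7l1 share 179 bases with the antisense gene Gm15401.

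Nkd1 lies at chr8:91045243-91118786 (plus strand, mm9). It was at 33.2, 33.8, 34.2 and 37.7 CPM in WT and at 32.3, 25.6, 32.2 and 32.9 CPM in the libraries labelled ErbB4-/-. Its groups did not overlap, but 3 of the mutant-labelled libraries lay just below the lowest WT library at 33.2 CPM, and ErbB4-/- replicate 2 was far below. The log2 fold change was -0.17 (SE 0.087, 95% confidence interval -0.37 to 0.02), with an unadjusted edgeR p of 0.07 and an exact two-sided permutation p of 0.0286. Without ErbB4-/- replicate 2 it was -0.1 (unadjusted edgeR p of 0.227), and with the Xist level as a covariate -0.3. Sfrp2 and Nkd1 were the 2 of 38 members (5.26%) whose genotypes did not overlap, and both were lower in the libraries labelled ErbB4-/-. Across all genes tested 3.34% did not overlap, and 1.48% did not overlap with the lower values in the libraries labelled ErbB4-/-.

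Axin2, the most widely used readout of beta-catenin activity, was at 32.3, 44.2, 47.0 and 46.5 CPM in WT and at 43.7, 37.9, 43.9 and 41.1 CPM in the libraries labelled ErbB4-/-. WT replicate 1 was the lowest of the 8 libraries, and the groups overlapped. The log2 fold change was -0.03 (95% confidence interval -0.27 to 0.21). Without WT replicate 1 it was -0.14, with an unadjusted edgeR p of 0.04 and an adjusted p of 0.811. Rnf43, the least abundant feedback gene, was at 1.28, 1.06, 1.64 and 1.79 CPM in WT and at 1.85, 1.12, 2.36 and 1.59 CPM in the libraries labelled ErbB4-/-. Its log2 fold change of 0.26 had a 95% confidence interval of -0.29 to 0.81, and its groups overlapped. It was 0.07 without ErbB4-/- replicate 3, 0.13 without WT replicate 2, 0.41 without ErbB4-/- replicate 2 and -0.07 with the Xist level as a covariate. Znrf3 ran from 10.4 to 16.9 CPM over the 8 libraries and had a log2 fold change of 0.05.

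**Figure D3:**
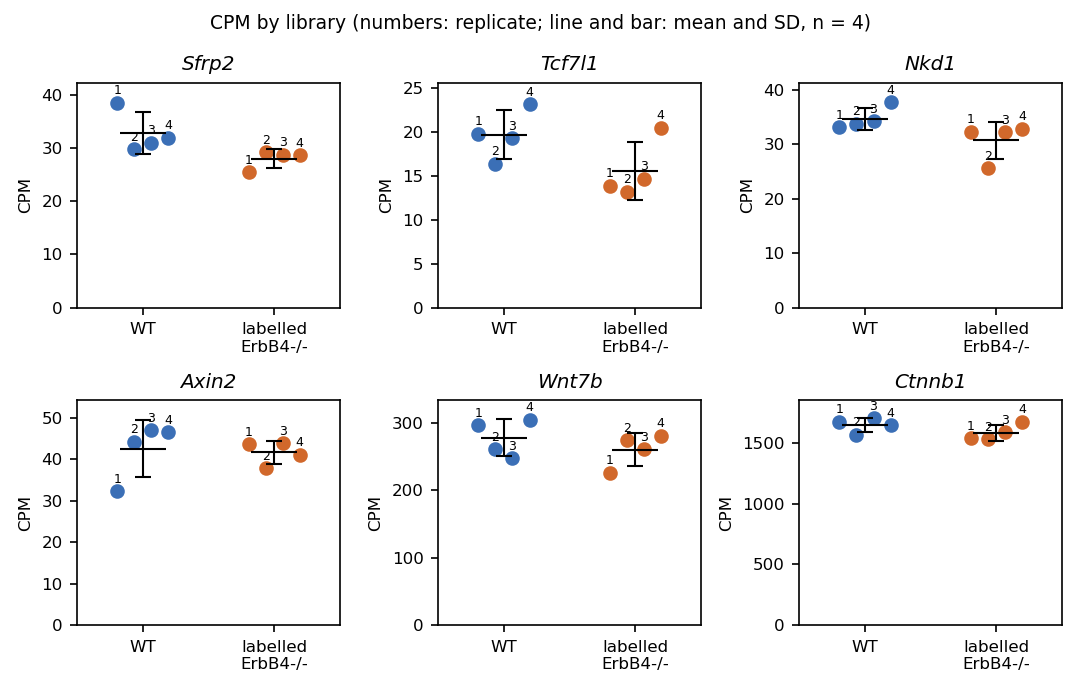
CPM of Sfrp2, Tcf7l1, Nkd1, Axin2, Wnt7b and Ctnnb1 in each library, with points numbered by replicate and the mean and SD of each group (n = 4) as a line and bar. The axes start at 0. Sfrp2 and Nkd1 show no overlap between groups, while the other genes overlap.

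Markers of cortical progenitors were read beside these genes. All 9 of the progenitor genes examined had lower fitted values in the libraries labelled ErbB4-/-, as had 7459 of the 14696 genes tested, and 0 of the 9 passed the adjusted test. Their median log2 fold change was -0.19. Among them 4 had an unadjusted edgeR p under 0.05, namely Pax6 at -0.27, Hes1 at -0.24, Nes at -0.23 and Vim at -0.19, against 5.53% of all genes with such a p and 2.52% with such a p and a lower value. The summed level of the list was 2002 to 2615 CPM in WT and 1968 to 2219 CPM in the libraries labelled ErbB4-/-, with WT replicate 1 the highest and the groups overlapping. The neuronal list summed to 7305 to 7519 CPM in WT and 7372 to 7835 CPM in the libraries labelled ErbB4-/-. The part of cell composition in the values of Sfrp2, Tcf7l1 and Nkd1 was not tested.

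The 2 leading ligands overlapped between groups. Wnt7b was at 297, 261, 248 and 305 CPM in WT and at 226, 274, 261 and 281 CPM in the libraries labelled ErbB4-/-. The log2 fold change was -0.09 (95% confidence interval -0.28 to 0.09), and the groups overlapped. Wnt7a was at 65.2, 58.5, 57.0 and 55.7 CPM in WT and at 57.5, 52.7, 56.4 and 59.0 CPM in the libraries labelled ErbB4-/-, with a log2 fold change of -0.07 (95% confidence interval -0.21 to 0.08). With the Xist level as a covariate the log2 fold change was -0.23 for Wnt7b and 0.005 for Wnt7a. Leaving out single libraries gave -0.14 to -0.03 for Wnt7b and -0.09 to -0.02 for Wnt7a. Wnt5a ran from 20.2 to 32.5 CPM over the 8 libraries and had a log2 fold change of 0.15, which ran from 0.05 without WT replicate 1 to 0.23 without WT replicate 3 and was 0.31 with the Xist level as a covariate. Wnt4, the least abundant ligand member per kilobase, was at 3.85, 2.69, 1.8 and 1.97 CPM in WT and at 3.35, 3.04, 2.33 and 3.11 CPM in the libraries labelled ErbB4-/-. WT replicate 1 was the highest and the groups overlapped, with a log2 fold change of 0.21. It ran from 0.07 without WT replicate 3 to 0.47 without WT replicate 1, where the unadjusted edgeR p was 0.0357.

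Fzd3, the main receptor, was at 210, 287, 339 and 296 CPM in WT and at 282, 292, 291 and 321 CPM in the libraries labelled ErbB4-/-. WT replicate 1 was the lowest, and the log2 fold change of 0.06 turned to -0.05 without it. Fzd1, Fzd2, Fzd8 and Fzd9, the next 4 in level, ran from 74.8 to 98.1, 62.9 to 85.5, 34.7 to 44.8 and 15.4 to 23.9 CPM over the 8 libraries. They had log2 fold changes of -0.11, -0.17, -0.13 and -0.16, each with overlapping groups and an unadjusted edgeR p over 0.05. Leaving out single libraries gave -0.17 to -0.06 for Fzd1, -0.25 to -0.12 for Fzd2, -0.19 to -0.08 for Fzd8 and -0.24 to -0.07 for Fzd9, and the unadjusted edgeR p of Fzd2 was 0.0178 without ErbB4-/- replicate 4. With the Xist level as a covariate the 4 receptor genes gave -0.21, -0.17, -0.2 and -0.33. Fzd5 and Fzd7 lie on chromosome 1 with Erbb4, at 3.29 and 8.53 Mb from it, where DNA around a targeted allele can keep the sequence of another strain. Fzd5 (chr1:64777134-64784324, minus strand, mm9), at the lowest level per kilobase among the members, was at 2.1, 2.47, 2.4 and 2.05 CPM in WT and at 2.48, 2.7, 2.69 and 1.71 CPM in the libraries labelled ErbB4-/-. Fzd7 (chr1:59538991-59543791, plus strand, mm9) was at 22, 25.4, 23.9 and 23.1 CPM in WT and at 25.0, 24.0, 28.1 and 24.9 CPM in the libraries labelled ErbB4-/-. Both overlapped between groups, with log2 fold changes of 0.09 and 0.11. Fzd4 at 2.71 to 4.82 CPM and Fzd6 at 8.8 to 11.9 CPM over the 8 libraries had log2 fold changes of 0.04 and -0.14.

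Porcn (chrX:7770974-7783651, minus strand, mm9) is the X-linked member. It was at 34.7, 38.2, 33.1 and 40.1 CPM in WT and at 41.7, 41.1, 35.9 and 34.8 CPM in the libraries labelled ErbB4-/-. The groups overlapped, with a log2 fold change of 0.07. With the Xist level as a covariate the value was -0.07. Of the co-receptor genes, Lrp6 was at 85.4, 119, 115 and 116 CPM in WT and at 105, 116, 114 and 123 CPM in the libraries labelled ErbB4-/-. WT replicate 1 lay below the other 7 libraries, and the log2 fold change of 0.07 became -0.03 without it. Lrp5 was at 38.4, 40.2, 41.3 and 45.2 CPM in WT and at 38.3, 37.5, 40.5 and 40.9 CPM in the libraries labelled ErbB4-/-, with overlapping groups and a log2 fold change of -0.07. It was -0.02 without WT replicate 4 and -0.2 with the Xist level as a covariate.

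Ctnnb1 was at 1677, 1569, 1704 and 1648 CPM in WT and at 1539, 1533, 1589 and 1676 CPM in the libraries labelled ErbB4-/-. The log2 fold change was -0.06 (95% confidence interval -0.18 to 0.06). In the destruction complex, the log2 fold change was 0.19 for Apc, 0.08 for Gsk3b (341 to 448 CPM over the 8 libraries) and -0.03 for Axin1 (81.4 to 88 CPM). Apc was at 385, 552, 539 and 586 CPM in WT and at 584, 613, 585 and 573 CPM in the libraries labelled ErbB4-/-. WT replicate 1 was far below the rest, and without it the log2 fold change of Apc was 0.08, and with the Xist level as a covariate 0.03. Of the adaptor genes, Dvl3 was at 84.7, 125, 119 and 127 CPM in WT and at 121, 117, 117 and 128 CPM in the libraries labelled ErbB4-/-, with WT replicate 1 the lowest. Dvl2 was at 62.2, 55.2, 54.0 and 56.4 CPM in WT and at 51.5, 54.4, 52.4 and 52.7 CPM in the libraries labelled ErbB4-/-, with WT replicate 1 the highest. The log2 fold changes were 0.08 for Dvl3, -0.11 for Dvl2 and -0.05 for Dvl1 (107 to 134 CPM), and each gene's groups overlapped. Exons of Dvl2 share 1151 bases with Acadvl on the other strand. Unstranded reads there cannot be assigned to 1 of these genes, and whether they were counted or set aside was not examined. The modulator gene Dkk3 was at 23.9, 30.2, 30.5 and 31.0 CPM in WT and at 34.2, 34.8, 32.3 and 28.3 CPM in the libraries labelled ErbB4-/-, with overlapping groups and a log2 fold change of 0.16. It was 0.09 without WT replicate 1 and 0.08 with the Xist level as a covariate.

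Libraries of 1 group also differed among themselves. WT replicate 1 had the lowest CPM of the 8 libraries for 17 of 38 members (44.7%), against 29.4% of all genes tested, and the highest for 7, against 29.9% of all genes. The longest transcripts among the members were low in it, on a log2 scale against the mean of the other 7 libraries, by -0.58 for Apc, -0.43 for Lrp6 and -0.32 for Gsk3b. Across all tested genes with a length (n = 14281) the Spearman correlation of that difference with transcript length was -0.58, and across the 38 members it was -0.121. These genes share the same 8 libraries and are not independent replicates. Without WT replicate 1, 5 members (13.2%) had an unadjusted edgeR p under 0.05, against 5.93% of all genes in that fit. They were Sfrp2, Nkd1, Axin2 and Fzd10, lower in the libraries labelled ErbB4-/-, and Wnt4, higher, and 0 passed the adjustment.

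**Figure D4:**
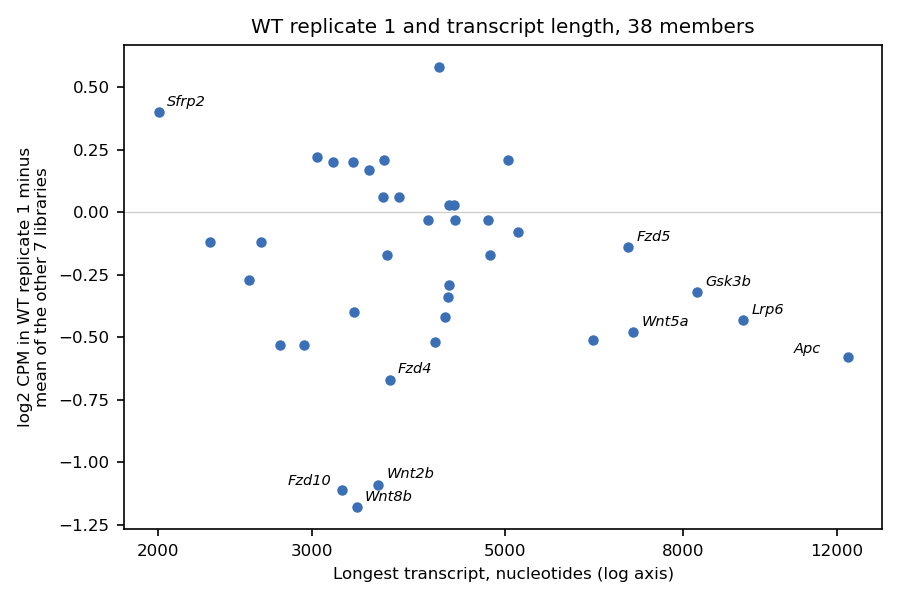
Difference in log2 CPM between WT replicate 1 and the mean of the other 7 libraries (y axis) against the length of the longest transcript in nucleotides (log axis), 1 point for each of the 38 members. Apc, Lrp6 and Gsk3b, the longest, lie below 0 at -0.58, -0.43 and -0.32, and Wnt8b, Fzd10 and Wnt2b lie lowest without being long.

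Wnt8b, Wnt2b and Wnt3a, ligands of the medial cortex, were among the members whose level varied most from library to library. Wnt8b was at 2.57, 6.06, 7.53 and 6.29 CPM in WT and at 6.6, 3.62, 6.91 and 5.27 CPM in the libraries labelled ErbB4-/-. Wnt2b was at 2.35, 5.87, 7.01 and 4.93 CPM in WT and at 4.89, 3.33, 5.61 and 4.7 CPM in the libraries labelled ErbB4-/-. Wnt3a was at 1.71, 2.15, 2.92 and 2.85 CPM in WT and at 2.6, 1.9, 2.64 and 2.54 CPM in the libraries labelled ErbB4-/-. In all 3 genes WT replicate 1 was the lowest library and ErbB4-/- replicate 2 the next. Wnt5a did not share this order, with WT replicate 1 lowest at 20.2 CPM, WT replicate 4 next at 23.6 CPM and ErbB4-/- replicate 2 at 25.9 CPM. Their summed level was 6.63, 14.1, 17.5 and 14.1 CPM in WT and 14.1, 8.84, 15.2 and 12.5 CPM in the libraries labelled ErbB4-/-. Between genotypes their log2 fold changes had 95% confidence intervals of -0.63 to 0.61 for Wnt8b, -0.72 to 0.46 for Wnt2b and -0.43 to 0.43 for Wnt3a.

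The same pair of libraries was lowest for Fzd10, Dvl3 and Axin2. That made 6 of 38 members (15.8%) with WT replicate 1 and ErbB4-/- replicate 2 as the lowest libraries, against 3.75% of all genes tested, a pattern chosen after the values were seen. Fzd10, a receptor of the medial cortex, was at 0.963, 2.85, 2.71 and 2.45 CPM in WT and at 2.31, 1.49, 1.82 and 1.75 CPM in the libraries labelled ErbB4-/-. Without WT replicate 1 its log2 fold change moved from -0.29 to -0.52, with an unadjusted edgeR p of 0.0155, and without WT replicate 2 it was -0.16. Markers of the cortical hem behaved alike in part. Lmx1a, a transcription factor of the hem, was at 0.927 CPM in WT replicate 1 and 1.67 CPM in ErbB4-/- replicate 2, with 2.08 to 4.28 CPM in the other 6 libraries. Rspo1, which strengthens Wnt signalling at the receptor, was at 3.28 and 3.36 CPM in the same pair, with 4.7 to 6.47 CPM elsewhere. Of the 5 hem markers tested, 3 had this pair as the lowest, and the summed level of all 7 hem markers, most of it Rspo3, ran from 45.3 to 57.3 CPM without following the pattern. Choroid plexus markers were also low in both, at summed levels of 2.89 and 3.24 CPM. The part of the amount of medial tissue in these values was not tested.

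**Figure D5:**
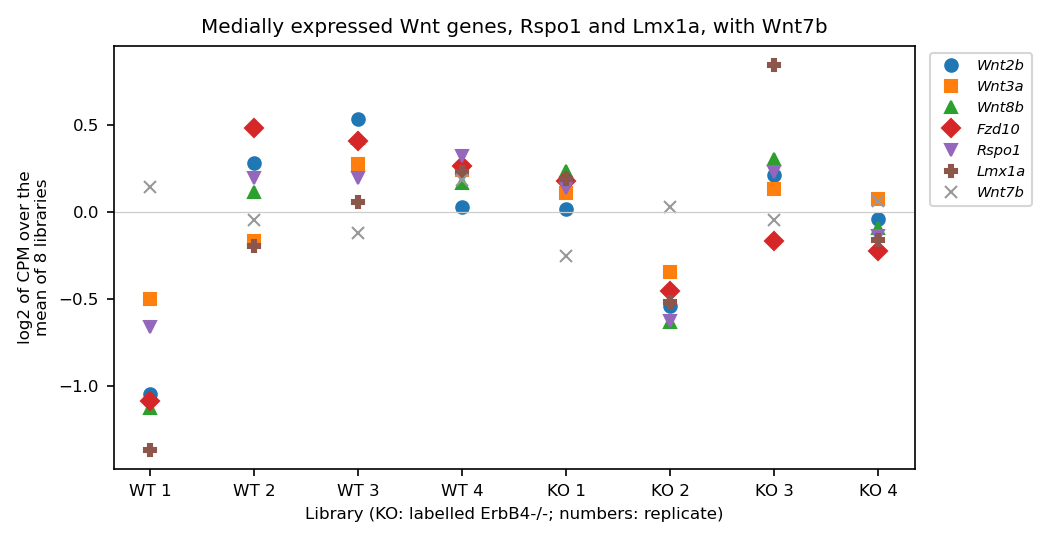
Log2 of CPM over the mean of the 8 libraries for Wnt2b, Wnt3a, Wnt8b, Fzd10, Rspo1 and Lmx1a, with Wnt7b for comparison, in each library (WT, and KO for labelled ErbB4-/-, numbered by replicate). WT replicate 1 and ErbB4-/- replicate 2 lie lowest for all but Wnt7b, and Lmx1a is highest in ErbB4-/- replicate 3.

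A wider set of 80 pathway genes was read beside the members. Of these, 78 symbols were in the files and 66 were tested. With edgeR, DESeq2 and limma-voom 0 passed the adjusted test, the lowest edgeR adjusted p was 0.81, and 6 (9.09%) had an unadjusted p under 0.05, against 5.53% of all genes. DESeq2 and limma-voom each gave 6 as well. The 37 higher and 29 lower fitted values had a median of 0.02. Of 9 genes known as Wnt targets, 3 had higher and 6 lower fitted values, with a median of -0.08, and 3 had an unadjusted p under 0.05. The proneural factor gene Neurog2 was at 234, 179, 181 and 218 CPM in WT and at 141, 137, 176 and 181 CPM in the libraries labelled ErbB4-/- (log2 fold change -0.35, SE 0.11). Neurog1, a related proneural gene, gave -0.64 (SE 0.19) and the cell cycle gene Ccnd1 gave -0.22 (SE 0.069). Their unadjusted edgeR p values were 0.00864, 0.00659 and 0.00911, and the adjusted p was 0.81 for each. The other targets gave 0.26 for Sp5, 0.22 for Cd44, 0.02 for Tnfrsf19, -0.06 for Lhx2, -0.08 for Myc and -0.12 for Emx2. Neurog1, Neurog2 and Ccnd1 are expressed in progenitors, whose markers had a median of -0.19, and the part of cell composition in their values was not tested. Apcdd1, a membrane antagonist of Wnt, gave -0.16, while the polarity gene Prickle1 gave 0.22 and the corepressor gene Tle4 gave 0.14. Tle4 was the only one of the 66 (1.52%) whose genotypes did not overlap, against 3.34% of all genes tested, at 125 to 135 CPM in WT and 135 to 155 CPM in the libraries labelled ErbB4-/-.

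Of the 12 ligands outside the members, 4 were tested. These were Wnt5b at 4.28 to 5.17, Wnt3 at 0.857 to 2.25, Wnt9a at 1.46 to 3.13 and Wnt10a at 0.373 to 0.741 CPM over the 8 libraries. Wnt8a had 0 reads in each library, and Wnt1, Wnt2, Wnt6, Wnt9b, Wnt10b, Wnt11 and Wnt16 were too low to test, at no more than 0.321 CPM. The log2 fold changes of Rspo3, Celsr3, Apc2, Tle3 and Lhx2, named for the highest CPM in their lists with no correction for length, were -0.03, 0.10, 0.06, -0.07 and -0.06. Wls, which carries Wnt proteins to the cell surface, was at 23.7 to 33.5 CPM with a log2 fold change of 0.11. Sostdc1, an antagonist gene also expressed in choroid plexus, was at 8.58 CPM in ErbB4-/- replicate 3 and at no more than 1.54 CPM in the other libraries, the library with the choroid plexus RNA.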

How the data were processed

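Dorsal cortex polyA RNA from 4 WT and 4 ErbB4-/- mice was sequenced by the authors as unstranded 50-nucleotide single-end reads. The authors aligned the reads with HISAT to mm9 and counted reads per gene with HTSeq, and the deposited values are raw counts per gene symbol, 1 file per sample. A deposited DESeq2 comparison of the genotypes, with fold changes and p-values, was not used. Groups came from the genotype labels. Gene positions and transcript lengths were taken from GENCODE vM1 (mm9), and promoter windows from RefSeq (GRCm38.p6).

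Genotypes were compared by the quasi-likelihood F test of edgeR 4.0.16 (R 4.3.3) on TMM-scaled counts. The edgeR filter on low counts was set to 10 per library and 15 in total, which left 14696 genes, and p-values were adjusted over these by Benjamini-Hochberg (0.05). TMM factors ran from 0.994 to 1.01 and the biological coefficient of variation was 10.7%. CPM used these factors, log2 CPM a prior count of 2, and single genes an exact permutation test over 70 assignments. The code was tested on simulated data. With 4 libraries a group, precision was limited by the spread between libraries more than by depth, except for genes of a few CPM. The alternatives were DESeq2 1.42.0, limma-voom (limma 3.58.1), relative log expression scaling, every gene kept, a stricter filter (mean count of 50 or more), a replicate block, an Xist covariate, removal of a length trend (loess, span 0.3), and leaving out each library.

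All 38 members are accounted for. The naming rule gave values per library to members with an unadjusted p under 0.05 or non-overlapping genotypes, the most and least abundant of each role, the largest and smallest fold change and members on chromosomes 1 and X, and named other pathway and marker genes with an unadjusted p under 0.05 or the highest CPM of their list. Wnt7a, Wnt8b, Apc, Wnt2b, Wnt3a, Fzd10, Lmx1a and Rspo1 were added after their values were seen. Sostdc1 and the remaining genes of the target list and of the ligands outside the members were also named outside this rule. The members and lists were chosen with earlier results of these data known.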

Additional observations from a re-analysis of the deposited data

Results flagged for a closer look

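Within groups of 4 libraries, 7 of the 76 member groups examined held a library far from the other 3 by Dixon's criterion, and chance gives about 1 in 20 groups. The share over all genes tested was not counted, and the members share the same libraries, so the 7 are not read as an excess among the members. In WT replicate 1, Lrp6 was at 85.4 CPM against 115 to 119 CPM, and Dkk3 at 23.9 CPM against 30.2 to 31.0 CPM. In WT replicate 3, Fzd6 was at 11.9 CPM against 9.73 to 10 CPM. In ErbB4-/- replicate 1, Sfrp2 was at 25.4 CPM against 28.6 to 29.2 CPM. In ErbB4-/- replicate 2, Nkd1 was at 25.6 CPM against 32.2 to 32.9 CPM, and Wnt3a at 1.9 CPM against 2.54 to 2.64 CPM. In ErbB4-/- replicate 4, Znrf3 was at 13.3 CPM against 15 to 15.3 CPM.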

How the results depend on the processing

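No member passed the adjusted test under any alternative run. The number of all genes called, 4 with edgeR, was 25 with DESeq2, 1 with relative log expression scaling, 1 with Xist as a covariate, 2 with the length trend removed and 1 with the replicate number as a block, and ran from 1 to 13 when single libraries were left out, with 13 without WT replicate 4. The replicate numbers were not shown to pair the libraries. Same-numbered libraries had correlations of 0.0837, 0.135, 0.0476 and 0.0236. ErbB4-/- replicates 1, 2 and 3 each correlated best with the WT library of the same number. ErbB4-/- replicate 4 correlated best with WT replicate 3, at 0.154, the highest of all pairs. With the block, 0 members passed the adjusted test, as without it, 4 members against 2 and 1025 of all genes against 812 had an unadjusted p under 0.05, and the unadjusted p of Tcf7l1 was 0.00291. Members with an unadjusted p under 0.05 numbered 0 without ErbB4-/- replicate 1 and 5 without WT replicate 1. Of the alternative values of single results, 569 kept their direction and side of the threshold and 39 changed sign, and the cause was not tested. Wnt3a, near 0 in the first fit, changed to 0.00023 with DESeq2, 0.0074 with limma-voom, 0.00082 with relative log expression, 0.0015 with the mean of at least 50 counts and 0.02 with the block, and Wnt8b to 0.04 with limma-voom and 0.03 with the block. With Xist as a covariate, Wnt7a became 0.005, Porcn -0.07, Fzd4 -0.09, Dvl3 -0.04, Tcf7 -0.04, Tcf7l2 0.13 and Rnf43 -0.07. With the length trend removed, Lrp6 became -0.02, Gsk3b -0.0071 and Znrf3 -0.0062. Leaving out single libraries gave log2 fold changes of -0.36 to 0.08 for Wnt2b, -0.13 to 0.11 for Wnt3a, -0.24 to 0.17 for Wnt8b, -0.05 to 0.16 for Fzd3, -0.11 to 0.12 for Fzd4, -0.03 to 0.12 for Lrp6, -0.1 to 0.02 for Sfrp1, -0.04 to 0.14 for Dvl3, -0.14 to 0.02 for Axin2, -0.01 to 0.09 for Tcf7, -0.19 to 0.11 for Tcf7l2 and -0.07 to 0.15 for Znrf3. Depth limits the genes of a few CPM, where Fzd10 rested on 27 reads in WT replicate 1.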
